A study of Mus musculus with 15 samples.

Results

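The RNA of 6 SOX genes was followed through tankyrase knockdown and tankyrase inhibition in primary mouse articular chondrocytes. They were taken by name, *Sox9* and *Sox8* of the SoxE group, *Sox5* and *Sox6* of the SoxD group and *Sox4* and *Sox11* of the SoxC group, and are 6 of the 24134 genes in the deposited count tables. All 6 had enough reads to be tested in both tables. Cells came from the femoral condyles and tibial plateaus of ICR mice 4 to 5 days old and were used at passage 0. In the siRNA table they had received a control siRNA (siCtrl) or siRNAs against *Tnks* and *Tnks2* together (siTnks/2), with METAFECTENE PRO as the carrier and no stated time. In the drug table they had been kept for 108 h with DMSO, 10 μM XAV939 or 10 μM IWR-1, small molecules that block the catalytic domain of both tankyrases. Each of the 5 groups held 3 libraries, called biological replicates by the submitters. The comparisons ask whether SOX RNA moves while the genes that SOX9 activates rise.

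SOX proteins bind DNA through an HMG domain. SOX9 is the factor without which mesenchymal cells do not become chondrocytes, and it binds enhancers of the genes for type II collagen, aggrecan and the other matrix components of cartilage. SOX5 and SOX6 lack an activation domain of their own and act at the same enhancers to strengthen SOX9, while SOX8 is a close relative of SOX9 and SOX4 and SOX11 are best known from progenitor cells. Tankyrases attach poly(ADP-ribose) to proteins, which can mark them for degradation, and SOX9 is regulated as a protein as well as at its RNA.

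The knockdown used 1 duplex per gene, shown because it defines the treated cells of the siRNA table. The sense strands are given 5′ to 3′, and capitals mark the bases that lie opposite the seed (bases 2 to 8) of a guide pairing with the whole strand.
siTnks: gucugucguugAGUACCUu
siTnks2: gugucuacuugUAUCACAu
The first matches the coding sequence of *Tnks* in exon 14 of 27 (mm10 chr8:34855966-34855984, minus strand) and the second the 3′ UTR of *Tnks2* in exon 27 of 27 (mm10 chr19:36892822-36892840, plus strand), and neither matched a transcript of another gene over all 19 bases. The antisense strand listed for siTnks2 pairs with all 19 bases. The one listed for siTnks pairs with 18 of the 19, and its unpaired base is base 8, within the seed. The 7 capital bases of each sense strand were found 0 times in the longest coding transcript of each of the 6 SOX genes, against 17.6% and 14.5% of 21877 coding genes that hold them. For siTnks as listed, the site opposite the seed is TGTACCT, which *Sox9* and *Sox11* each held 1 time and the other 4 SOX genes 0 times, against 19.9% of coding genes. Whether either guide acted on these RNAs was not tested. *Tnks* measured 69.0, 58.4 and 70.1 CPM in the 3 siCtrl libraries and 19.5, 12.7 and 24.0 CPM in the 3 siTnks/2 libraries. It changed by −1.81 log2 units (SE 0.22, adjusted p = 0.00569), and *Tnks2* changed by −1.10 (SE 0.11, adjusted p = 0.00384), so RNA of both remained.

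Libraries held between 26857070 and 36615194 counts. Of 11 chondrocyte markers all had counts in every library, and those of endothelial cells (5), glia (4), muscle (5) and leukocytes (6) summed to at most 11.9 CPM (read counts relative to library size, with TMM factors from edgeR), against 25913 CPM or more for the chondrocyte markers. Endothelial markers reached 7.74 CPM in replicate 2 of siTnks/2 and at most 0.888 CPM elsewhere. That library was also the only one with counts of *Sox17*, an endothelial factor (6 counts), and the highest for *Sox18* (17 counts). The same-numbered libraries of a table varied together. The main fit does not hold the replicate number, and calls come from it unless stated. Values from a model that also holds the replicate number (the replicate block) are given beside results whose call it changes. In bulk RNA, fewer cells of a type and less RNA per cell cannot be told apart.

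*Sox9* was the most abundant of the 6 per base of exon in every group. In siCtrl it measured 44.9 ± 3.97 CPM per kb of exon (SD, n = 3), followed by *Sox4* at 13.7 ± 2.85, *Sox6* at 8.59 ± 0.0813, *Sox8* at 5.85 ± 1.62, *Sox5* at 3.53 ± 0.116 and *Sox11* at 0.931 ± 0.217. With DMSO the order was *Sox9* at 27.5 ± 2.62, *Sox4* at 9.02 ± 3.18, *Sox6* at 4.19 ± 0.518, *Sox5* at 3.67 ± 0.969, *Sox11* at 1.98 ± 0.329 and *Sox8* at 0.697 ± 0.299 CPM per kb. *Sox6* and *Sox5* lay within their spread of each other with DMSO, whereas in siCtrl the SD ranges of neighbours did not meet. The SD covers the spread between libraries only. Exon bases were merged over all annotated transcripts (14832 for *Sox6*, 4795 for *Sox4*), so the order depends on which transcripts were made. In CPM not divided by length, *Sox6* measured 127 ± 1.21 and *Sox4* 65.7 ± 13.7 in siCtrl. Of the 14 other SOX genes of the mouse, *Sox7*, *Sox12* and *Sox13* passed the filter on low counts and 11 did not, with at most 17 counts in any library. The tables were scaled separately, so levels are compared within a table.

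**Figure D1:**
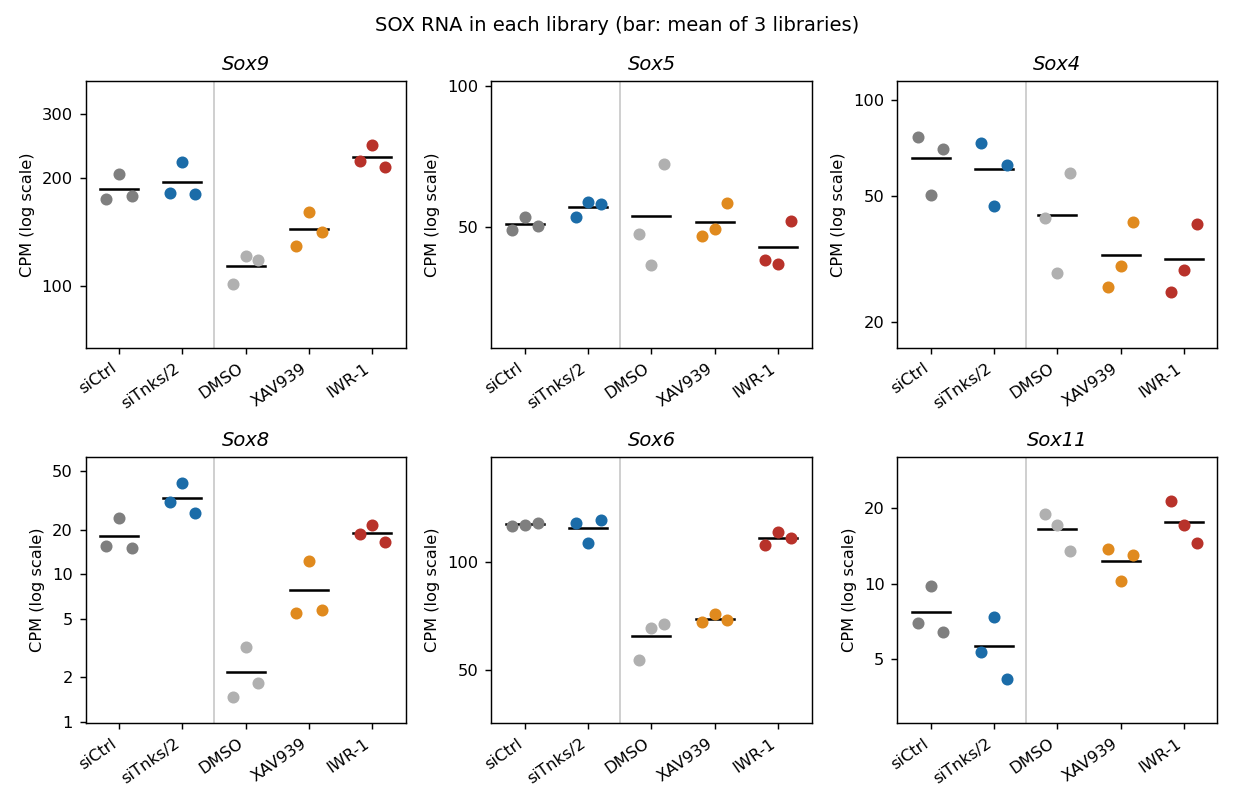
CPM (log axis, different range in each panel) of the 6 SOX genes in each of the 15 libraries, with the siRNA table left and the drug table right of the grey line. Points are libraries in replicate order and bars the mean of 3. *Sox8* with siTnks/2, XAV939 and IWR-1 lies above its controls in every library, *Sox9* and *Sox6* do so with IWR-1 and XAV939, and *Sox4*, *Sox5* and *Sox11* overlap their controls.

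*Sox8* was the member that rose in all 3 treatments, 1.80-fold with siTnks/2, 3.52-fold with XAV939 and 8.53-fold with IWR-1. *Sox9*, the chondrocyte master factor, rose 2.01-fold with IWR-1, measured 1.27-fold of DMSO with XAV939 without passing the test, and stood at 1.05-fold of its control after knockdown. *Sox6*, a partner of SOX9 at enhancers, rose 1.88-fold with IWR-1 and did not pass the test in the other comparisons. Without the replicate block, no member fell past the threshold of 0.05 (Benjamini-Hochberg adjusted over all genes tested) in these comparisons. With the block *Sox11* fell with siTnks/2 and XAV939, *Sox4* fell with XAV939 and IWR-1, and *Sox9* also rose with XAV939. By count, 1 of 6 members was called with siTnks/2, where 18.0% of all genes tested were called (10.4% higher, 7.61% lower). With XAV939 the count was 1 of 6 beside 17.4% of all genes (7.57% higher, 9.85% lower), and with IWR-1 it was 3 of 6 beside 36.4% (16.2% higher, 20.2% lower). With the block the counts were 2, 4 and 4 of 6, beside 34.6%, 33.4% and 47.5% of all genes. With 6 genes these counts are no result about the group, and the results are those of the single genes.

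**Figure D2:**
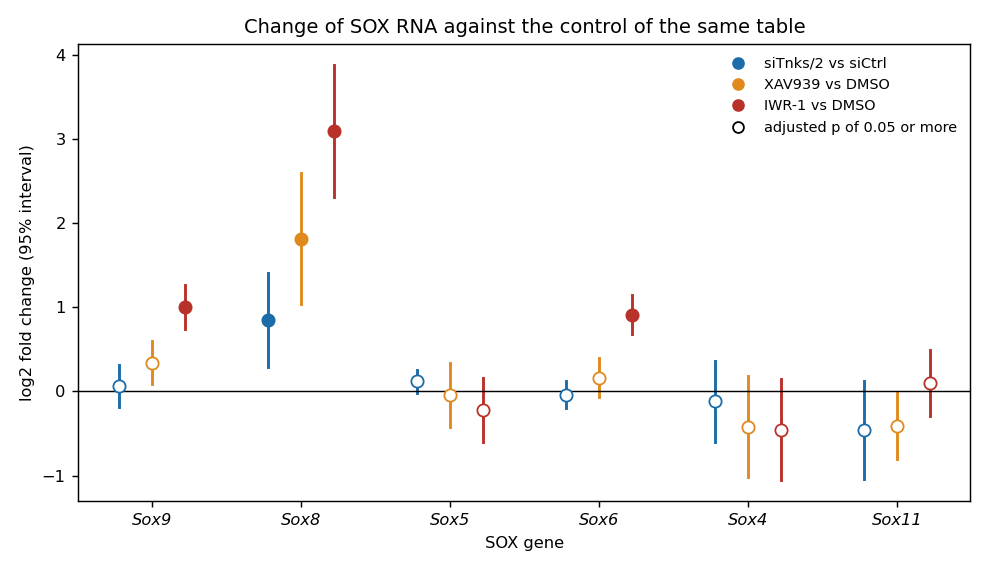
Log2 fold change of each SOX gene against the control of its table, with the 95% interval of the fit before adjustment. Filled points have an adjusted p under 0.05 and open points do not. *Sox8* is filled in all 3 comparisons (0.85, 1.82 and 3.09), *Sox9* and *Sox6* only with IWR-1 (1.01 and 0.91), and the intervals of *Sox5* and *Sox4* include 0 in each comparison.

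*Sox9* (gene ID 20682, chromosome 11, 112782210 to 112787757, plus strand, mm10) measured 174, 204 and 178 CPM in replicates 1, 2 and 3 of siCtrl and 182, 221 and 181 CPM with siTnks/2. The groups overlapped, and each knockdown library was at most 0.12 log2 units above the control of the same number. In the fit the log2 difference was 0.068 (SE 0.10, 95% interval −0.18 to 0.32, adjusted p = 0.680), an interval that spans 0.883-fold to 1.24-fold. Without replicate 2 of siTnks/2, the library with the highest sum of endothelial markers, it was −0.035. That fit kept siCtrl replicate 2, the highest control, without its partner. Same-numbered libraries differed by 0.059, 0.12 and 0.020 log2 units in replicates 1, 2 and 3. Whether the endothelial RNA bears on *Sox9* was not tested. In the drug table the DMSO libraries held 101, 121 and 118 CPM of *Sox9*, the XAV939 libraries 129, 161 and 141 CPM and the IWR-1 libraries 222, 247 and 215 CPM. Each XAV939 library lay above every DMSO library and each IWR-1 library above every XAV939 library. The log2 fold change with XAV939 was 0.34 (SE 0.12, 95% interval 0.084 to 0.60, adjusted p = 0.0677), which passed the threshold with the replicate block (adjusted p = 0.0113, with 33.4% of all genes called) and with upper-quartile scaling (adjusted p = 0.0434). With IWR-1 it was 1.01 (SE 0.12, adjusted p = 8.17e-05).

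*Sox8* (gene ID 20681, chromosome 17, 25565893 to 25570686, minus strand) encodes a protein that can bind the same DNA sites as SOX9. It measured 15.5, 24.1 and 15.2 CPM in siCtrl and 30.8, 41.8 and 26.0 CPM with siTnks/2. Every knockdown library was above every control, and the knockdown changed *Sox8* by 0.85 log2 units (SE 0.23, 95% interval 0.29 to 1.41, adjusted p = 0.0487). The call was narrow without the block (adjusted p = 0.00193 with it). It was lost on leaving out siCtrl replicate 1 (log2 fold change 0.75, adjusted p = 0.154), siCtrl replicate 3 (0.74, adjusted p = 0.147), siTnks/2 replicate 1 (0.89, adjusted p = 0.106) or siTnks/2 replicate 2 (0.64, adjusted p = 0.0629). Each of these fits kept a library without its same-numbered partner. In replicates 1, 2 and 3 the siTnks/2 library lay 0.99, 0.79 and 0.77 log2 units above the siCtrl library of the same number. With the inhibitors the separation was wider. DMSO libraries held 1.46, 3.23 and 1.82 CPM of *Sox8* (48 to 111 counts), XAV939 libraries 5.47, 12.4 and 5.77 CPM and IWR-1 libraries 18.8, 21.7 and 16.6 CPM. The 3 groups did not overlap. XAV939 changed *Sox8* by 1.82 log2 units (SE 0.35, adjusted p = 0.00572). IWR-1 changed it by 3.09 (SE 0.36, adjusted p = 7.85e-05), which ranks 40 from the top among 13873 genes.

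*Sox8* also made up more of the SoxE RNA in treated cells. Its share of the summed *Sox8* and *Sox9* level (CPM per kb) was 10.1% to 13.5% in siCtrl and 16.02% to 20.02% with siTnks/2. It was 1.88% to 3.41% with DMSO, 5.15% to 9.26% with XAV939 and 9.32% to 10.4% with IWR-1. The groups of each comparison did not overlap (p = 0.1 in an exact permutation test, two-sided, which is the lowest p that 3 libraries against 3 allow). *Sox9* remained the larger part throughout.

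The *Sox8* start faces an antisense gene. In RefSeq the long noncoding gene *Cerox1* (gene ID 72834, plus strand, 25570811 to 25575043) starts 125 bases from the *Sox8* start, while in GENCODE M21 it begins inside the first exon of *Sox8* and shares 329 bases with it. Libraries were made with a kit that keeps the strand, but the strand setting of the counting is not given in the sources used here. *Cerox1* held 58 to 144 counts in the siRNA table and 25 to 95 in the drug table. Its levels were 1.04, 1.48 and 0.786 CPM with DMSO and 2.76, 2.66 and 2.44 CPM with IWR-1 (log2 fold change 1.20, SE 0.24, adjusted p = 0.00289). Its changes with siTnks/2 (0.82, SE 0.28, adjusted p = 0.0833) and XAV939 (0.64, SE 0.25, adjusted p = 0.103) passed only with the replicate block (adjusted p = 0.0158 and 0.0266). Beside these, *Sox8* had 48 to 111 counts with DMSO, where *Cerox1* had 25 to 51, and 574 to 676 with IWR-1, where *Cerox1* had 83 to 95. The part of antisense reads in the *Sox8* counts was not tested. The RefSeq promoter window of *Sox8* (GRCm38.p6, chr17:25570637-25570936, minus strand, 250 bases before to 50 after the start) is shown because *Sox8* rose in all 3 treatments, with capitals on matches to GGGCGG, the GC box, and CACGTG, an E-box, on either strand.
*Sox8*: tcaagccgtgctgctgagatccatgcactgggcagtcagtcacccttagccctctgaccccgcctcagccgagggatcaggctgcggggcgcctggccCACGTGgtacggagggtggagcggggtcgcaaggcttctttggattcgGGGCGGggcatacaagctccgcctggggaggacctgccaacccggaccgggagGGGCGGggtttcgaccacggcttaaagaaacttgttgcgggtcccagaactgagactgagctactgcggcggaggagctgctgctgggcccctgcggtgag
The window held 2 GC boxes, found in 35.7% of 32851 mouse promoter windows of this length, and 1 E-box, found in 7.15%. It held 0 matches to the SOX-type letters ACAAAG, to the variant ACAATG, to the form TCAAAG or to the form TCAATG on either strand, which 44.0% of windows hold, and 0 to the TCF/LEF-type letters ATCAAAG, which contain TCAAAG and are held by 3.73%. A match of letters is no evidence of binding, nor its absence of the contrary. No window of *Sox9* was used here.

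**Figure D3:**
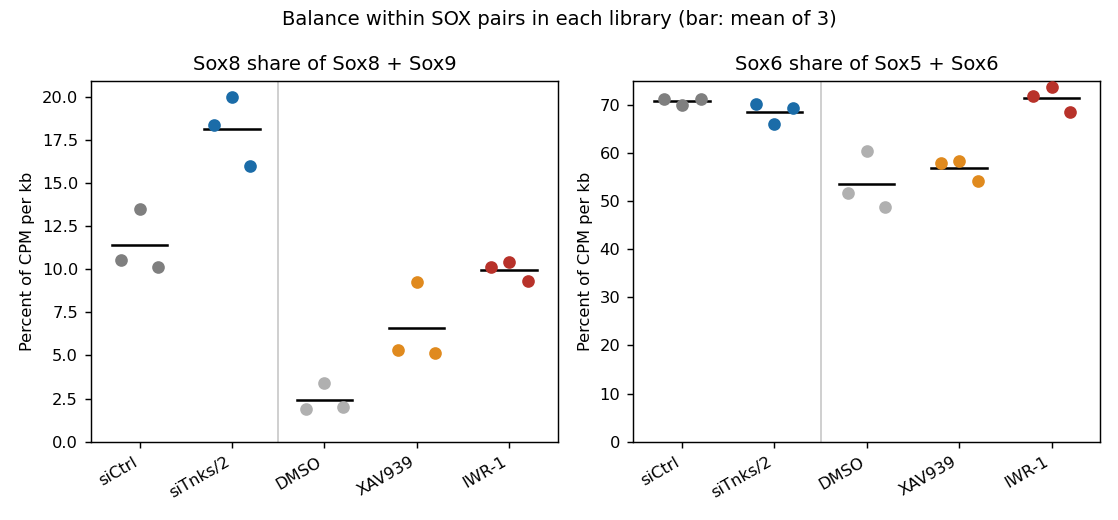
Share of *Sox8* in the summed level of *Sox8* and *Sox9* (left) and of *Sox6* in that of *Sox5* and *Sox6* (right), in percent of CPM per kb of exon from 0, for each library, with bars at the mean of 3. The *Sox8* share is higher in every treated library than in the controls of its table, and the *Sox6* share is higher with IWR-1 (68.7% to 73.8%) than with DMSO (48.9% to 60.5%).

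Of the SoxD pair that helps SOX9 at cartilage enhancers, *Sox6* rose with IWR-1 and *Sox5* passed no test against a control, with or without the replicate block. *Sox6* (gene ID 20679, chromosome 7, 115470872 to 116040776, minus strand) measured 126, 127 and 129 CPM in siCtrl and 128, 113 and 131 CPM with siTnks/2. These overlapped (log2 fold change −0.036, SE 0.068, 95% interval −0.20 to 0.12, adjusted p = 0.739). In the drug table DMSO libraries held 53.3, 65.5 and 67.4 CPM, XAV939 libraries 68.3, 71.8 and 68.8 CPM and IWR-1 libraries 112, 121 and 117 CPM. The XAV939 libraries were above DMSO by a margin that did not pass (log2 fold change 0.16, SE 0.10, 95% interval −0.066 to 0.40, adjusted p = 0.303). The IWR-1 libraries stood clear of both other groups (0.91, SE 0.10, adjusted p = 7.91e-05).

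*Sox5* (gene ID 20678, chromosome 6, 143828425 to 144782287, minus strand) measured 49.3, 52.6 and 50.2 CPM in siCtrl and 52.5, 56.7 and 56.1 CPM with siTnks/2. With DMSO, XAV939 and IWR-1 it measured 48.3, 41.5 and 68.3 CPM, 47.9, 49.5 and 56.2 CPM, and 42.5, 41.8 and 51.7 CPM. The groups overlapped in each comparison. Knockdown gave, in log2 units, a change of 0.12 (SE 0.059, adjusted p = 0.191), XAV939 one of −0.042 (SE 0.17, adjusted p = 0.893) and IWR-1 one of −0.22 (95% interval −0.59 to 0.16, adjusted p = 0.358). The *Sox6* share of the SoxD level was 48.9% to 60.5% with DMSO, 54.3% to 58.4% with XAV939 and 68.7% to 73.8% with IWR-1. Between DMSO and IWR-1 the shares did not overlap (exact permutation p = 0.1), and between siCtrl and siTnks/2 they did (exact p = 0.2).

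RefSeq lists 6 promoter windows for *Sox6*, and the most upstream one (GRCm38.p6, chr7:116038695-116038994, minus strand) is shown beside that of *Sox8*, since both genes rose with IWR-1. Capitals mark the match to the SOX-type letters given above.
*Sox6*: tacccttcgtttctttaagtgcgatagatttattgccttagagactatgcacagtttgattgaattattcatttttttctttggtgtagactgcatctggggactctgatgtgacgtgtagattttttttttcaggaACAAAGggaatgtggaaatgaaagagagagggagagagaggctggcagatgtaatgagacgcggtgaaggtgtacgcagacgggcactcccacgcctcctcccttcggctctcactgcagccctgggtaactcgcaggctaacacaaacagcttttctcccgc
In order from the most upstream, the 6 windows held 1, 1, 6, 2, 3 and 1 such matches. The TCF/LEF-type letters matched 1 time, in the third window, and GC boxes 4 times, all in the second. The counts do not say from which start the *Sox6* RNA came. The single windows of *Sox4* and *Sox11* held 0 SOX-type matches and that of *Sox5* held 1.

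For *Sox4* and *Sox11*, the SoxC pair, no change against a control passed without the replicate block. *Sox4* (gene ID 20677, chromosome 13, 28948919 to 28953699, minus strand) measured 76.6, 50.3 and 70.0 CPM in siCtrl and 73.2, 46.4 and 62.2 CPM with siTnks/2. Replicate 2 was the lowest of both groups, and the groups overlapped (log2 fold change −0.12, SE 0.20, adjusted p = 0.719). DMSO libraries held 42.5, 28.4 and 58.9 CPM, XAV939 libraries 25.8, 29.9 and 41.3 CPM and IWR-1 libraries 24.8, 29.1 and 40.8 CPM. Replicates 1 and 3 of both inhibitors were below their DMSO partners and replicate 2 was not. With XAV939 the log2 difference was −0.42 (SE 0.27, adjusted p = 0.313, or 0.0458 with the replicate block). For IWR-1 it was −0.45 (SE 0.27, adjusted p = 0.222, or 0.0224 with the block, where 47.5% of all genes were called).

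*Sox11* (gene ID 20666, chromosome 12, 27334268 to 27342718, minus strand) measured 6.999, 9.79 and 6.43 CPM in siCtrl and 5.38, 7.34 and 4.18 CPM with siTnks/2. Each knockdown library was below the control of the same number, by 0.38 to 0.61 log2 units, although the groups overlapped. The log2 fold change of −0.45 (SE 0.25, adjusted p = 0.234) was called only with the replicate block (adjusted p = 0.0220, with 34.6% of all genes called). DMSO libraries held 18.8, 17.1 and 13.5 CPM of *Sox11*, XAV939 libraries 13.8, 10.3 and 13.02 CPM and IWR-1 libraries 21.3, 17.1 and 14.6 CPM. The change with XAV939 was −0.41 (SE 0.18, adjusted p = 0.140, or 0.0320 with the block), and with IWR-1 it was 0.10 (SE 0.18, 95% interval −0.29 to 0.49, adjusted p = 0.699).

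XAV939 and IWR-1 were given at the same dose for the same time and bind different pockets of the tankyrase catalytic domain. IWR-1 gave higher *Sox8*, *Sox9* and *Sox6* RNA than XAV939 in a direct contrast, with 3 of 6 members called beside 17.6% of all genes (7.37% higher, 10.2% lower). *Sox6* was 1.68-fold higher (log2 fold change 0.74, SE 0.10, adjusted p = 0.00100), *Sox9* 1.59-fold (0.67, SE 0.12, adjusted p = 0.00311) and *Sox8* 2.42-fold (1.28, SE 0.32, adjusted p = 0.0207). The call on *Sox8* was lost without XAV939 replicate 1, XAV939 replicate 3, IWR-1 replicate 1 or IWR-1 replicate 2, with log2 fold changes of 1.07, 1.10, 1.29 and 1.17 and adjusted p-values of 0.0757, 0.0678, 0.0564 and 0.0800. *Sox11* was 1.42-fold higher with IWR-1, and its libraries did not overlap (adjusted p = 0.0747, or 0.0125 with the replicate block, where 30.7% of all genes were called). For *Sox5* and *Sox4* no difference between the compounds passed, with 95% intervals of −0.55 to 0.20 and −0.63 to 0.56 log2 units. The 6 direct contrasts share libraries with the comparisons against DMSO.

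Whether an inhibitor moved a SOX gene differently from the knockdown was tested as a difference of log2 fold changes in 1 model over all 15 libraries. The IWR-1 effect exceeded the knockdown effect for *Sox8* by 2.23 (SE 0.46, adjusted p = 0.00259), for *Sox6* by 0.94 (SE 0.13, adjusted p = 0.000154) and for *Sox9* by 0.93 (SE 0.16, adjusted p = 0.000976), 3 of 6 members beside 24.4% of all genes (10.5% higher, 13.9% lower). For XAV939 against the knockdown 0 of 6 differences passed edgeR's quasi-likelihood test and 0 had an unadjusted p under 0.05, beside 13.5% of all genes called (5.40% higher, 8.07% lower). *Sox8* came nearest, with a difference of 0.95 (SE 0.45, 95% interval −0.018 to 1.92, adjusted p = 0.177), which passed with the replicate block (adjusted p = 0.00982, with 28.2% of all genes called). *Sox11* differed between IWR-1 and the knockdown only with the block (0.54, adjusted p = 0.220, or 0.0280 with it, beside 36.3% of all genes). The siRNA and drug experiments also differ in the carrier and in their own controls, which cannot be told apart from the agent. The knockdown left part of the *Tnks* and *Tnks2* RNA and its time is not stated, which cannot be told apart from the agent either.

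Many targets of SOX9 rose in each treatment, also in the knockdown, where *Sox9* RNA overlapped its control. The list of 91 genes is the study's own selection, genes that fall after *Sox9* deletion in rib chondrocytes and carry SOX9 binding, and so does not come from these libraries. With siTnks/2, 41 of 89 tested targets rose and 1 fell, with a median log2 fold change of 0.53 against −0.0012 over all genes. With XAV939, 37 of 90 rose and 4 fell (median 0.47 against 0.016), and with IWR-1 67 of 90 rose and 6 fell (median 1.31 against 0.0056). The shares that rose were 46.1%, 41.1% and 74.4%, beside the 10.4%, 7.57% and 16.2% of all genes given above. *Sox6* is itself on this list, and without it the counts were 41 of 88, 37 of 89 and 66 of 89. With the replicate block 62 targets rose and 3 fell with siTnks/2, 47 and 9 with XAV939 and 72 and 7 with IWR-1, and DESeq2 gave 54 and 3 with siTnks/2. Leaving out siCtrl replicate 1, siCtrl replicate 2, siCtrl replicate 3 or siTnks/2 replicate 1 left 18, 29, 19 and 28 targets called with siTnks/2, leaving out replicate 2 of siTnks/2 left 45, and leaving out DMSO replicate 1 left 26 with XAV939.

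**Figure D4:**
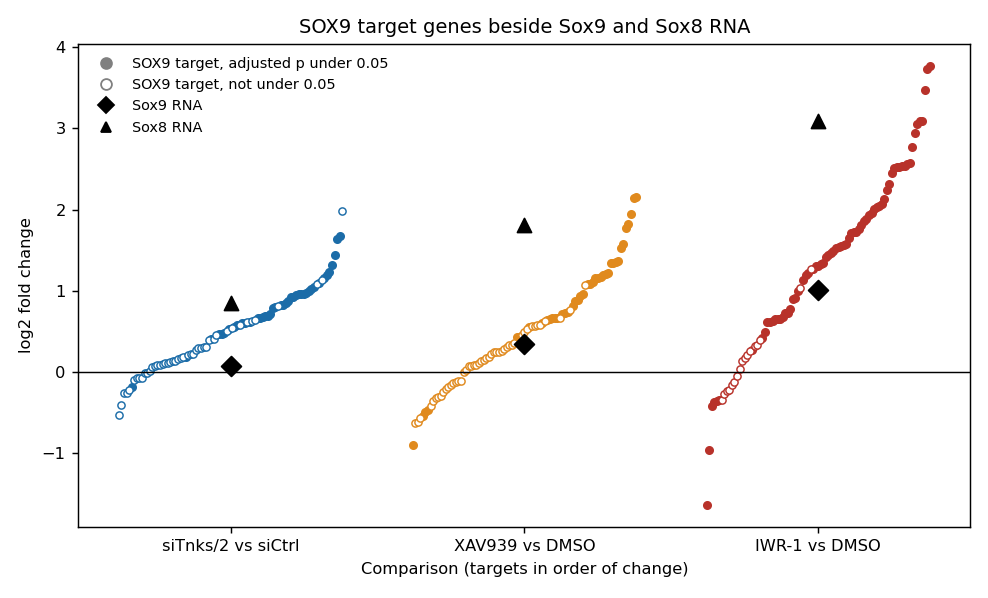
Log2 fold change of each tested SOX9 target other than *Sox6* (88 with siTnks/2, 89 with each inhibitor) in order of size, filled where the adjusted p is under 0.05, with *Sox9* RNA as a diamond and *Sox8* RNA as a triangle. *Sox9* stands at 0.068, 0.34 and 1.01, and the medians of the targets shown are 0.54, 0.49 and 1.31.

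Of the 90 targets tested in any comparison, 26 (28.9%) rose in all 3 and 73 (81.1%) in at least 1, and 0 fell in all 3. Of all 14203 genes tested, 1.49% rose in all 3 and 24.2% in at least 1. XAV939 and IWR-1 share their DMSO libraries, so these counts are not of 3 separate experiments. With siTnks/2 the largest calls were *Enpp2*, which makes lysophosphatidic acid (log2 fold change 1.68), *Mia*, a secreted cartilage protein (1.64), *Ppp1r1b* (1.45) and the amino acid transporter *Slc38a3* (1.31), and the only target to fall was *Phyh*, a peroxisomal enzyme (−0.19, adjusted p = 0.0454). With XAV939 they were *Fgfr3*, a receptor that restrains chondrocyte proliferation (2.15), *Fzd9*, a Wnt receptor (2.14), *Smpd3*, a sphingomyelinase of cartilage and bone (1.95), and *Wscd2* (1.82). The same 4 genes led with IWR-1, *Wscd2* at 3.77, *Fgfr3* at 3.74, *Smpd3* at 3.48 and *Fzd9* at 3.10. *Cpm* (−0.90), *Colgalt2* (−0.54), the peroxiredoxin *Prdx5* (−0.50) and the kinase gene *Stk39* (−0.47) fell with XAV939. *Lcn2*, an iron-siderophore carrier induced in inflammation (−1.64), *Prdx5* (−0.96), the zinc transporter *Slc39a14* (−0.43) and *Prelp* (−0.37) fell with IWR-1. Some targets named as falling rose elsewhere. *Colgalt2* rose by 0.99 with siTnks/2 (adjusted p = 0.0328). With IWR-1 *Cpm* rose by 0.61, *Stk39* by 0.27 and *Phyh* by 0.61 (adjusted p = 0.0182, 0.0417 and 0.00122). With siTnks/2 *Cpm* (1.99), *Lcn2* (1.13) and *Stk39* (0.20) passed only with the replicate block (adjusted p = 0.00497, 0.00131 and 0.0180). So did *Colgalt2* with IWR-1 (0.33, adjusted p = 0.0306). *Prdx5*, *Slc39a14* and *Prelp* rose past the threshold in no treatment.

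Of 20 textbook SOX9 target genes of cartilage, 12 rose with siTnks/2, 11 with XAV939 and 19 with IWR-1, and 0 fell in each. Their median log2 fold changes were 0.70, 0.75 and 1.84, and of all genes 10.4%, 7.57% and 16.2% rose. With the replicate block 18, 17 and 20 of the 20 targets rose and 0 fell. Of the 20, 16 are also on the list of 91. *Acan*, the aggrecan core protein, rose in all 3, by 0.96 (adjusted p = 0.0155), 1.21 (adjusted p = 0.00516) and 2.95 (adjusted p = 1.12e-05). *Wwp2*, which hosts a cartilage microRNA, measured 0.41 with siTnks/2 (adjusted p = 0.145, or 0.0108 with the replicate block) and rose by 0.71 with XAV939 and 1.33 with IWR-1. *Col2a1*, the type II collagen chain, measured 0.64 with siTnks/2 (SE 0.27, adjusted p = 0.140, or 0.0263 with the block) and 0.52 with XAV939 (SE 0.21, adjusted p = 0.118, or 0.00668 with the block), and rose by 1.66 (SE 0.22, adjusted p = 0.000194) with IWR-1. *Col9a1* (0.58, 0.46 and 1.76) and *Matn3*, a matrilin (0.61, 0.76 and 2.54), passed with IWR-1, and in the other comparisons only with the block, at adjusted p = 0.00669 (siTnks/2) and 0.00913 (XAV939) for *Col9a1* and 0.00266 and 0.00463 for *Matn3*.

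The mean log2 CPM over 88 targets, members excluded, set the list beside *Sox9* RNA in single libraries. It was 7.06 to 7.27 in siCtrl and 7.53 to 7.83 with siTnks/2, a difference of 0.51 at *Sox9* levels of 174 to 204 and 181 to 221 CPM that overlapped. In the drug table it was 5.59 to 5.96 with DMSO, 6.15 to 6.55 with XAV939 and 7.03 to 7.19 with IWR-1, and there the *Sox9* levels of the groups did not overlap either. The target means of the groups did not overlap in any of these comparisons (p = 0.1 in each exact permutation test). Of 11 chondrocyte markers 5 rose with siTnks/2, 4 with XAV939 and 11 with IWR-1 (9, 10 and 11 with the replicate block), and 0 fell. Their summed level was 77605 to 105742 CPM in siCtrl, 112531 to 188725 with siTnks/2, 25913 to 35402 with DMSO, 35432 to 54960 with XAV939 and 84199 to 108755 with IWR-1, and 7 of the 11 markers are on the SOX9 list. Of 7 fibroblast markers, with 0 on that list, 1 rose and 0 fell with siTnks/2, 1 rose and 3 fell with XAV939, and 1 rose and 4 fell with IWR-1 (2 and 1, 1 and 4, and 1 and 5 with the block). Their summed level was 15675 to 17721 CPM with DMSO, 8165 to 10775 with XAV939 and 7128 to 9877 with IWR-1, and 5939 to 9539 in siCtrl and 3868 to 8446 with siTnks/2. Beside these marker calls, 10.4% of all genes rose and 7.61% fell with siTnks/2. With XAV939 7.57% rose and 9.85% fell, and with IWR-1 16.2% rose and 20.2% fell. With the block 34.6%, 33.4% and 47.5% of all genes were called in either direction. Whether the marker lists depart from these shares was not tested. The part of a change in cell makeup in the SOX results was not tested.

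**Figure D5:**
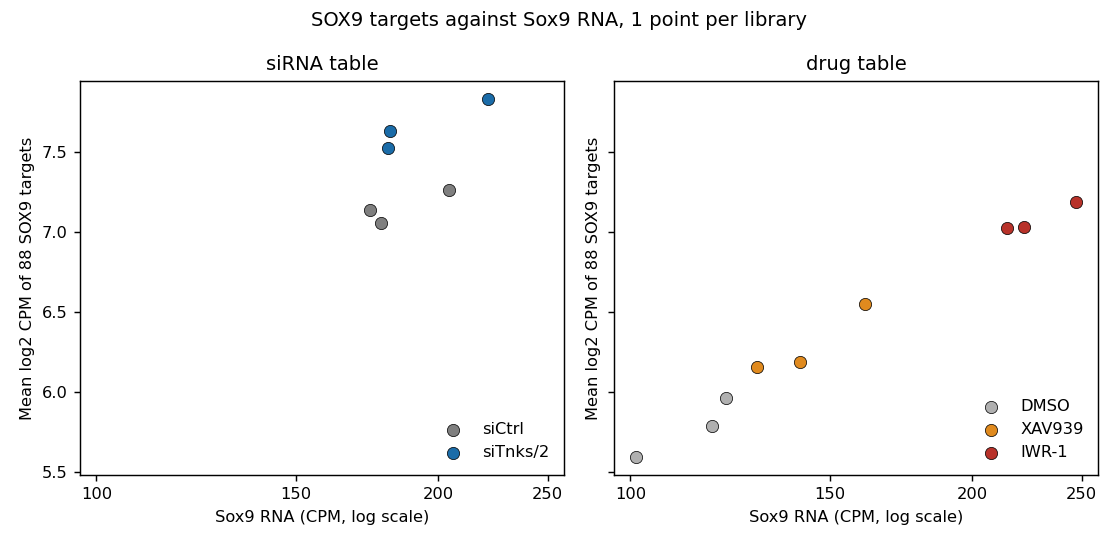
Mean log2 CPM of 88 SOX9 targets against *Sox9* CPM (log axis), 1 point per library, for the siRNA table (left) and the drug table (right). The siTnks/2 libraries (7.53 to 7.83) lie above siCtrl (7.06 to 7.27) over an overlapping range of *Sox9*, and in the drug table the groups are ordered DMSO, XAV939, IWR-1 on both axes.

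Without the replicate block, genes for proteins known to act with SOX9 passed the test no more often than all genes. Those named below are single calls. Of 19 coactivators, kinases and modifiers tested, 2 rose and 1 fell with siTnks/2, 0 rose and 1 fell with XAV939, and 2 rose and 4 fell with IWR-1, with medians of −0.031, 0.0025 and −0.10. Of all genes 18.0%, 17.4% and 36.4% were called. With the block 3 rose and 3 fell, 2 rose and 4 fell, and 3 rose and 7 fell, beside 34.6%, 33.4% and 47.5% of all genes. The kinase gene *Prkg2*, which acts on SOX9 in growth cartilage, rose by 0.67 (adjusted p = 0.0284) with siTnks/2 and 1.45 (adjusted p = 0.000438) with IWR-1. *Ctnnb1* (β-catenin) rose by 0.24 with siTnks/2 and *Maf*, a coactivator of *Col2a1*, by 0.84 with IWR-1. With siTnks/2 *Maf* changed the other way, by −0.26, and passed only with the block (adjusted p = 0.0638, or 0.0317 with it). *Smad3*, a transducer of TGF-β, fell by 0.64 with XAV939 and 0.63 with IWR-1, and *Prkaca*, a catalytic subunit of protein kinase A, fell by 0.22 with siTnks/2.

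Other transcription factors of the chondrocyte lineage were called in both directions, and without the replicate block no more often than all genes. The genes named below are single calls and no result about the list. Of 34, 30 were tested with siTnks/2 (3 rose, 1 fell) and 32 with the inhibitors (2 rose and 3 fell with XAV939, 3 rose and 8 fell with IWR-1), with medians of −0.013, −0.29 and −0.22, beside the same 18.0%, 17.4% and 36.4% of all genes. With the block 10 rose and 8 fell, 5 rose and 10 fell, and 5 rose and 10 fell, beside 34.6%, 33.4% and 47.5% of all genes. With siTnks/2, *Foxa2*, a factor of hypertrophy, fell by 0.95, *Mef2c*, another, rose by 0.70 and *Gli2*, a hedgehog effector, rose by 0.68. With XAV939, *Pax9* fell by 1.34, *Scx*, the tendon factor, fell by 0.80 and *Nkx3-2*, which acts early in chondrogenesis, rose by 0.83. With siTnks/2 *Nkx3-2* changed the other way, by −0.40, and passed only with the block (adjusted p = 0.0552, or 0.0460 with it). With IWR-1, *Gli1*, a hedgehog target, rose by 2.82 from 0.279 to 2.36 CPM, *Barx2* fell by 2.54 and *Pax9* by 1.78.

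Among the other SOX genes, *Sox7*, a SoxF factor best known from endothelium, was low but rose with both inhibitors. It measured 0.949 ± 0.347 CPM with DMSO, 2.03 ± 0.499 with XAV939 and 3.98 ± 0.801 with IWR-1 (SD, n = 3), without overlap to DMSO (log2 fold changes 1.04, adjusted p = 0.0358, and 2.00, adjusted p = 0.000362). Endothelial markers summed to at most 0.629 CPM in these libraries. With siTnks/2 it measured 2.39 ± 0.580 against 2.89 ± 0.332 CPM (log2 fold change −0.27, adjusted p = 0.404). *Sox12*, the remaining SoxC gene, fell by 0.37 with IWR-1 (SE 0.10, adjusted p = 0.0167) and *Sox13*, the remaining SoxD gene, measured 0.42 with siTnks/2 (adjusted p = 0.0769, or 0.0389 with the replicate block).

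The genes nearest to *Sox9* that passed the filter are both long noncoding. *2610035D17Rik*, 256 kb beyond the *Sox9* end, had 1.13, 2.27 and 0.849 CPM in DMSO libraries, 3.91, 4.62 and 2.72 CPM in XAV939 libraries and 9.13, 10.1 and 6.76 CPM in IWR-1 libraries. It rose by 1.36 (adjusted p = 0.0174) and 2.55 (adjusted p = 0.000156), and with siTnks/2 its change of 0.62 passed only with the replicate block (adjusted p = 0.104, or 0.00653 with it). *BC006965*, 70.9 kb before *Sox9*, had 4 or 5 counts with DMSO and 9 to 22 with the inhibitors (log2 fold changes 1.19, adjusted p = 0.0174, and 1.47, adjusted p = 0.00216). Its change with siTnks/2 was 0.064 (adjusted p = 0.908). On the other side of *Sox8* from *Cerox1* lies *Cacna1h*, a T-type calcium channel gene 130 kb away. It fell by 3.70 with XAV939 and 3.56 with IWR-1, opposite to *Sox8*. With siTnks/2, where *Sox8* rose, *Cacna1h* changed by −0.092 (adjusted p = 0.716). *Bcat1*, 212 kb from *Sox5* and itself on the SOX9 list, rose by 1.22 with IWR-1, where *Sox5* did not. The members overlap 9 RefSeq genes, all long noncoding and within *Sox4*, *Sox5* or *Sox6*, and only *Sox5os3* is in the tables, with too few counts to be tested.

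Over the 15 libraries, each expressed as log2 CPM minus the control mean of its table, *Sox8* and *Sox9* had a Pearson correlation of 0.953, *Sox6* and *Sox9* of 0.936 and *Sox6* and *Sox8* of 0.856. *Sox4* and *Sox5* had 0.664 with each other and −0.334 to −0.607 with *Sox6*, *Sox8* and *Sox9*. The libraries fall into 5 groups that share controls and replicate numbers, so these values describe the pattern only. Of 13342 genes tested in both tables, those closest to *Sox8* were *Trpv4*, a calcium channel of chondrocytes (0.993), the amino acid transporter *Slc1a5* (0.990) and *Bambi*, a pseudoreceptor of the TGF-β family (0.989). Closest to *Sox9* were *Aldh18a1*, an enzyme of proline synthesis (0.979), *Sec14l1* (0.979) and *Matn3* (0.976), and to *Sox6* *Rab39b* (0.981), *Nars* (0.978) and *Loxl4* (0.977). *Trpv4*, *Slc1a5*, *Matn3* and *Loxl4* are on the SOX9 list. *Sox4* was closest to *Arid5b* (0.921), *Setd2* (0.921) and *Creb5* (0.921), *Sox5* to *Tanc1* (0.965), *Ddx17* (0.924) and *Tet2* (0.906), and *Sox11* to *Slc9a3r2* (0.946), *Spryd4* (0.876) and *Snhg1* (0.818).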

How the data were processed

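RNA of 15 libraries (5 groups of 3) was sequenced after a stranded mRNA preparation. The deposited values are raw counts per gene in 1 table for the siRNA experiment and 1 for the drug experiment. Per the submitters' processing notes, the authors used Trimmomatic 0.32, TopHat2 2.0.13 and HTSeq 0.6.1p1 with mm10; the annotation and strand setting of the counting are not given in the sources used here. Tables held 24134 gene IDs, of which 24051 matched a RefSeq symbol.

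Groups were taken from the sample labels. Each table was fitted alone with edgeR 4.0.16 (R 4.3.3, limma 3.58.1): filterByExpr (13672 and 13873 genes tested), TMM factors, glmQLFit and glmQLFTest, with Benjamini-Hochberg adjustment over all genes tested and a threshold of 0.05. Differences of effects were contrasts in 1 model of all 15 libraries (14271 genes). Log2 fold changes used a prior count of 2, and SEs and 95% intervals come from the quasi-likelihood fit. CPM per kb used merged exon bases of GENCODE M21 on GRCm38, and coordinates and promoters are those of RefSeq GRCm38.p6. Alternatives were RLE and upper-quartile factors, no filter or at least 10 counts in every library, a prior count of 0.5, the replicate block, DESeq2 1.42.0, fits of only the groups compared, and leaving out each library. Scripts were tested on simulated counts. Libraries held 26857070 to 36615194 counts.

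The replicate numbers come from the labels. Deviations of same-numbered libraries from their group means correlated at 0.143 to 0.553 in the drug table and 0.424 to 0.519 in the siRNA table. Every pair lay above the limit of 0.1, so the numbers were taken to pair libraries. The replicate block uses this pairing. The main fit, the fits that leave out a library and the permutation tests do not use it. Differently numbered libraries correlated at −0.489 to 0.318 and −0.409 to 0.0972. DMSO replicate 2 correlated more with replicate 1 of XAV939 (0.318) and of IWR-1 (0.316) than with their replicate 2 (0.143 and 0.244). What separates the replicates is not stated, so p-values measure the spread between these libraries. Members and gene lists were chosen with earlier results of these data known. Named list genes are the 4 highest and 4 lowest called SOX9 targets per comparison, the 3 largest calls of the partner and transcription factor lists, and 5 classic targets set by name. Likeness names the 3 genes with the highest Pearson correlation to each member.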

Additional observations from a re-analysis of the deposited data

Results flagged for a closer look

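The effect of IWR-1 differed from that of the knockdown for 3 members, by a direct test of the difference: *Sox6* by 0.94, *Sox8* by 2.23 and *Sox9* by 0.93 log2 units, each larger with IWR-1, with adjusted p-values of 0.000154, 0.00259 and 0.000976 in edgeR's quasi-likelihood test. These calls held on leaving out each of the 15 libraries in turn, with differences of 0.82 to 1.005 for *Sox6*, 1.99 to 2.60 for *Sox8* and 0.83 to 1.02 for *Sox9*. Outside the 6 members, *Sox7* differed between XAV939 and the knockdown by 1.29 (SE 0.39, adjusted p = 0.0397) and between IWR-1 and the knockdown by 2.26 (SE 0.38, adjusted p = 0.000706), both larger with the inhibitor. *Sox7* had 18 to 39 counts with DMSO. The carrier and the controls differ between the experiments and cannot be told apart from the agent. Nor can the *Tnks* and *Tnks2* RNA that remained after the knockdown, or its time, which is not stated.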

How the results depend on the processing

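Of 780 alternative values over 45 results, 729 kept their direction and side of the threshold, or for counts stayed within 1.5 times. With the replicate block, 2 members were called with siTnks/2 and 4 with XAV939, in place of 1 and 1. In the difference of XAV939 and knockdown effects 1 was called in place of 0. The block called 65 SOX9 targets with siTnks/2 in place of 42, beside 34.6% of all genes in place of 18.0%. The calls on members that it changed stand in the report, and it changed no other call on a member in the comparisons given there. DESeq2 called 57 targets with siTnks/2 and 49 with XAV939. Upper-quartile scaling called 2 members with XAV939 and turned *Sox5* to 0.010. Without 1 library, 0 to 1 members and 18 to 46 targets were called with siTnks/2, 26 to 41 targets with XAV939 and 65 to 75 with IWR-1. The 0 members followed the loss of siCtrl replicate 1, siCtrl replicate 3, siTnks/2 replicate 1 or siTnks/2 replicate 2.

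Leaving out 1 library reversed values that no test had called: with siTnks/2 *Sox4* (−0.27 to 0.041), *Sox6* (−0.077 to 0.025) and *Sox9* (−0.035 to 0.14), with XAV939 *Sox5* (−0.19 to 0.18), with IWR-1 *Sox5* (−0.36 to 0.0069) and *Sox11* (−0.063 to 0.21), between the inhibitors *Sox4* (−0.26 to 0.18), and in the difference of XAV939 and knockdown effects *Sox5* (−0.33 to 0.059) and *Sox11* (−0.17 to 0.27). The cause was not tested. What sets the spread of *Sox8* with DMSO (48 to 111 counts a library) was not tested.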

Other observations

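Some markers of later cartilage and bone cells, outside the SOX comparisons, differed between the groups. The summed level of 6 hypertrophic chondrocyte markers was 875 to 986 CPM in siCtrl and 1751 to 2206 with siTnks/2, where 4 rose and 0 fell (5 and 0 with the replicate block). In the drug table it was 12279 to 13943 CPM with DMSO, 7568 to 11636 with XAV939 (3 rose, 0 fell, or 1 with the block) and 3506 to 3936 with IWR-1 (4 rose, 1 fell), so the sum was lower while more markers rose than fell. The 5 osteoblast markers summed to 19.1 to 35.99 CPM in siCtrl, 47.9 to 114 with siTnks/2, 4.33 to 6.87 with DMSO, 17.3 to 22.9 with XAV939 and 19.1 to 24.1 with IWR-1, with 2, 3 and 3 markers called higher (4, 3 and 3 with the block) and 0 lower. The 4 tenocyte markers lay between 25.2 and 83.7 CPM, with 0 called in the knockdown and 1 lower with each inhibitor (1 higher and 1 lower in each comparison with the block). Beside these counts, 10.4% of all genes rose and 7.61% fell with siTnks/2. With XAV939 7.57% rose and 9.85% fell, and with IWR-1 16.2% rose and 20.2% fell. With the block 34.6%, 33.4% and 47.5% of all genes were called in either direction. For lists of 4 to 6 genes the counts are single calls and no result about a list.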
